A study of Homo sapiens with 10 samples.

Results

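The genes described are the nuclear genes for mitochondrial ribosomal proteins, chosen by symbol: *MRPL* or *MRPS*, a number and at most 1 letter from A to D. This gave 78 of the 59386 genes listed in the count files, 49 named *MRPL* for the large subunit and 29 named *MRPS* for the small subunit, while 79 pseudogene entries with similar symbols did not match. The symbols alone decided which genes were taken, although the family was picked for study with earlier results of these data known. RNA was sequenced from VCaP, an epithelial cell line of a human prostate cancer, to ask how the loss of 2 chromatin remodelers changes its transcripts. The cells were harvested 72 h after lipid transfection of an siRNA against *SMARCA4* (siRNA A or siRNA B) or against *SMARCA1* (siRNA A or siRNA C), given at 30 pmol. Each of the 4 siRNAs and the control has 2 libraries, so that 4 *SMARCA4* knockdown, 4 *SMARCA1* knockdown and 2 control libraries were compared. The labels give the control cells the genotype WT and name neither an siRNA nor a dose for them. All libraries came from the 1 cell line, an siRNA lowers its target without removing it, and whether replicate libraries were separate cultures is not stated, so that p-values measure the spread between these libraries, which may be technical. The same 2 control libraries stand in every comparison with control.

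Mitochondrial ribosomes translate the few messenger RNAs of the mitochondrial genome, which encode membrane subunits of the respiratory chain and of ATP synthase. Their ribosomal RNAs are made inside the organelle, whereas their proteins are encoded in the nucleus, made in the cytosol and imported. Some of these proteins descend from bacterial ribosomal proteins and others were acquired in mitochondria. SMARCA4 is an ATPase of the SWI/SNF remodeling complexes and SMARCA1 an ATPase of the ISWI family.

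Symbols do not follow the structure of the ribosome throughout. MRPS30 and MRPS18A sit in the large subunit, and MRPS36 is a subunit of the oxoglutarate dehydrogenase complex of the citric acid cycle and no part of the ribosome. By place in the structure, 51 genes encoded large subunit proteins, of which 30 have a bacterial counterpart and 21 are specific to mitochondria. The small subunit accounted for 26, 16 of them with a bacterial counterpart and 10 without. The genes lay on 21 chromosomes, with at most 8 on any 1 of them.

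Total counts were between 23898545 and 34667965 per library, and the floor set by a count of 0 (3 counts) was at 0.0865 to 0.126 CPM, the unit of all levels, in which a gene's count is scaled to the size of its library. Both targets were lowered. *SMARCA4* was at 242 and 268 CPM in the controls and at 25.2, 23.2, 18.6 and 13.3 CPM in *SMARCA4* knockdown, and *SMARCA1* at 32.3 and 31.5 CPM in the controls and at 3.4, 1.75, 3.2 and 2.85 CPM in *SMARCA1* knockdown. *SMARCA1* was higher than control in *SMARCA4* knockdown, at 57.4 to 83.8 CPM (log2 fold change 1.07 ± 0.18 SE, edgeR adjusted p = 0.001). Prostate epithelial markers were detected in every library (11 of 11 markers, summed to between 9867 and 11910 CPM), and 4 leukocyte markers were at or near 0, at up to 0.0698 CPM together. Summed fibroblast markers (6 genes) were at 23.67 and 27.38 CPM in the controls, 18.23 to 35.02 CPM in *SMARCA4* and 36.99 to 55.23 CPM in *SMARCA1* knockdown, and summed endothelial markers (4 genes) at most at 3.263 CPM. Interferon-stimulated genes were called higher in both knockdowns (19 of 19 genes in each), with summed levels of 282.9 and 289.1 CPM in the controls, 15431.9 to 40966.8 CPM in *SMARCA4* knockdown and 21657.6 to 41564.7 CPM in *SMARCA1* knockdown. Their part in the differences from control described here was not tested.

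Promoter sequences are shown for 5 genes on which the results turn. *MRPL30* had the largest fall of a large subunit gene in both knockdowns. *MRPS25* and *MRPS27* had the largest falls of a small subunit gene in *SMARCA4* and *SMARCA1* knockdown, *MRPL44* was the gene higher in *SMARCA4* knockdown, and *MRPS18A* had the largest rise in *SMARCA1* knockdown. The RefSeq windows (GRCh38.p14) hold the 250 bases before each transcription start and the 50 after it, written 5′ to 3′ on the strand of the gene. Capitals mark CCGGAAG, the core bound by ETS factors such as GABPA, and AAGATGGC, a YY1 motif, on either strand. The windows are chr2:99180934-99181233 (plus strand) for *MRPL30*, chr5:72320191-72320490 (minus) for *MRPS27*, chr3:15065266-15065565 (minus) for *MRPS25*, chr2:223957213-223957512 (plus) for *MRPL44* and chr6:43687742-43688041 (minus) for *MRPS18A*.
MRPL30: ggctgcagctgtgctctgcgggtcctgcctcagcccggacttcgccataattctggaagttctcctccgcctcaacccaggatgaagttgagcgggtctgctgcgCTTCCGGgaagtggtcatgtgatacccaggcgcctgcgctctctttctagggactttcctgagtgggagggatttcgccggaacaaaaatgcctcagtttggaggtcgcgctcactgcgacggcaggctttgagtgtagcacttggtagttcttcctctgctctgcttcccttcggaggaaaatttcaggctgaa
MRPS27: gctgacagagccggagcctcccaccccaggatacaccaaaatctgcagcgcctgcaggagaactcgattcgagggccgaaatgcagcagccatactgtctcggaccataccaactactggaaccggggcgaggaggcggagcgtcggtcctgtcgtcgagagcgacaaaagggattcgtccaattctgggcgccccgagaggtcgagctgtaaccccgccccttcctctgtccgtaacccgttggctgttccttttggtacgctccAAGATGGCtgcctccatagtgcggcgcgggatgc
MRPS25: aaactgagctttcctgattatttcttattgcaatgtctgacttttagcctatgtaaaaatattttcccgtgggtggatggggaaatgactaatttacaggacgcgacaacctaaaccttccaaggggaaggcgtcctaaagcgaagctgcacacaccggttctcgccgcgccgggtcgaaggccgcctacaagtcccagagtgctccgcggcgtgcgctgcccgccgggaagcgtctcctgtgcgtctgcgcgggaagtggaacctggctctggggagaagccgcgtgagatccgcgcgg
MRPL44: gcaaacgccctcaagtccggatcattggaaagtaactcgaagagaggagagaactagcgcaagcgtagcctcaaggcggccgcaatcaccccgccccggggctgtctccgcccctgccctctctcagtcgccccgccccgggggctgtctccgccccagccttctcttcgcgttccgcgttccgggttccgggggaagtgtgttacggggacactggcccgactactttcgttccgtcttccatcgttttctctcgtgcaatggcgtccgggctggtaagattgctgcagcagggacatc
MRPS18A: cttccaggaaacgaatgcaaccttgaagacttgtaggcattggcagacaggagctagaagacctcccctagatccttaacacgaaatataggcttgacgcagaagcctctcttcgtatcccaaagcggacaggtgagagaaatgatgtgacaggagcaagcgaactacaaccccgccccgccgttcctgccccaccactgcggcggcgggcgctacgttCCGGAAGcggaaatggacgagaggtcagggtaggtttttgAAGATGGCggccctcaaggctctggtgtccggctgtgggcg

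*MRPL30* held 1 ETS core, read on the opposite strand, and *MRPS27* held 1 YY1 motif just after the start. *MRPS18A* held both. *MRPS25* and *MRPL44* held neither, which says only that these letters are absent from their windows. Windows were found for 69 of the 78 genes (85 windows, as some genes have more than 1 start), and none for *MRPL2*, *MRPL10*, *MRPL13*, *MRPL15*, *MRPL21*, *MRPL23*, *MRPL35*, *MRPS28* or *MRPS36*. The YY1 motif was in 27.1% of the 85 windows, 2.89% of all 35116 windows of the same length and 4.33% of the 16938 windows of tested genes. ETS cores were in 38.8%, 10.3% and 15.7% of these, respectively, and the NRF1 motif GCATGCGC in 7.06%, 3.05% and 4.46%. Both strands were searched, and although CCGGAAG and AAGATGGC can share letters, they overlapped in 0 of the 85 windows. The E-box CACGTG, which MYC and other factors bind and which reads the same on both strands, was in 10.6% of the 85 windows, 7.26% of all windows and 8.97% of those of tested genes. Among the genes with a window, 16 of 40 that fell in *SMARCA4* knockdown and 13 of 27 other tested genes held the ETS core, 12 and 8 the YY1 motif, 5 and 4 the E-box, and 1 and 5 the NRF1 motif. These matches are a description of letters and no evidence of binding.

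In *SMARCA4* knockdown, transcripts for mitochondrial ribosomal proteins were lower than in control across both subunits. Of the 76 genes that passed the filter on low counts, 47 fell and 1 rose, by edgeR's quasi-likelihood test at an adjusted p below 0.05. Among all 16899 tested genes, 22.3% fell and 22.8% rose. The median log2 fold change of the 76 genes was -0.43, ranging from -1.32 to 0.44, against 0.00 for all tested genes. Of the large subunit genes by name, 30 of 48 fell and 1 rose (median -0.42), and of the small subunit genes 17 of 28 fell and 0 rose (median -0.47). Beside the test, all 4 *SMARCA4* libraries were below both controls for 57 of the 76 genes and above both for 4, while this held for 29.0% and 29.5% of all tested genes.

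Summed over the large subunit genes, the level was 2607.7 and 2588.6 CPM in the controls and 2063.0 and 2091.9 CPM with *SMARCA4* siRNA A and 2096.1 and 1965.0 CPM with siRNA B. Their mean was 2054 ± 61.1 CPM (SD, n = 4), or 79.1% of control. The small subunit genes summed to 1467.1 and 1461.1 CPM in the controls, 1140.5 and 1163.9 CPM with siRNA A and 1055.4 and 984.2 CPM with siRNA B. Here the mean was 1086 ± 82.3 CPM (SD, n = 4), or 74.2% of control. The *SMARCA4* libraries thus lay below both controls for both subunits, without overlap. Whether fewer transcripts were made per cell or fewer cells carried them cannot be told apart in bulk RNA.

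**Figure D1:**
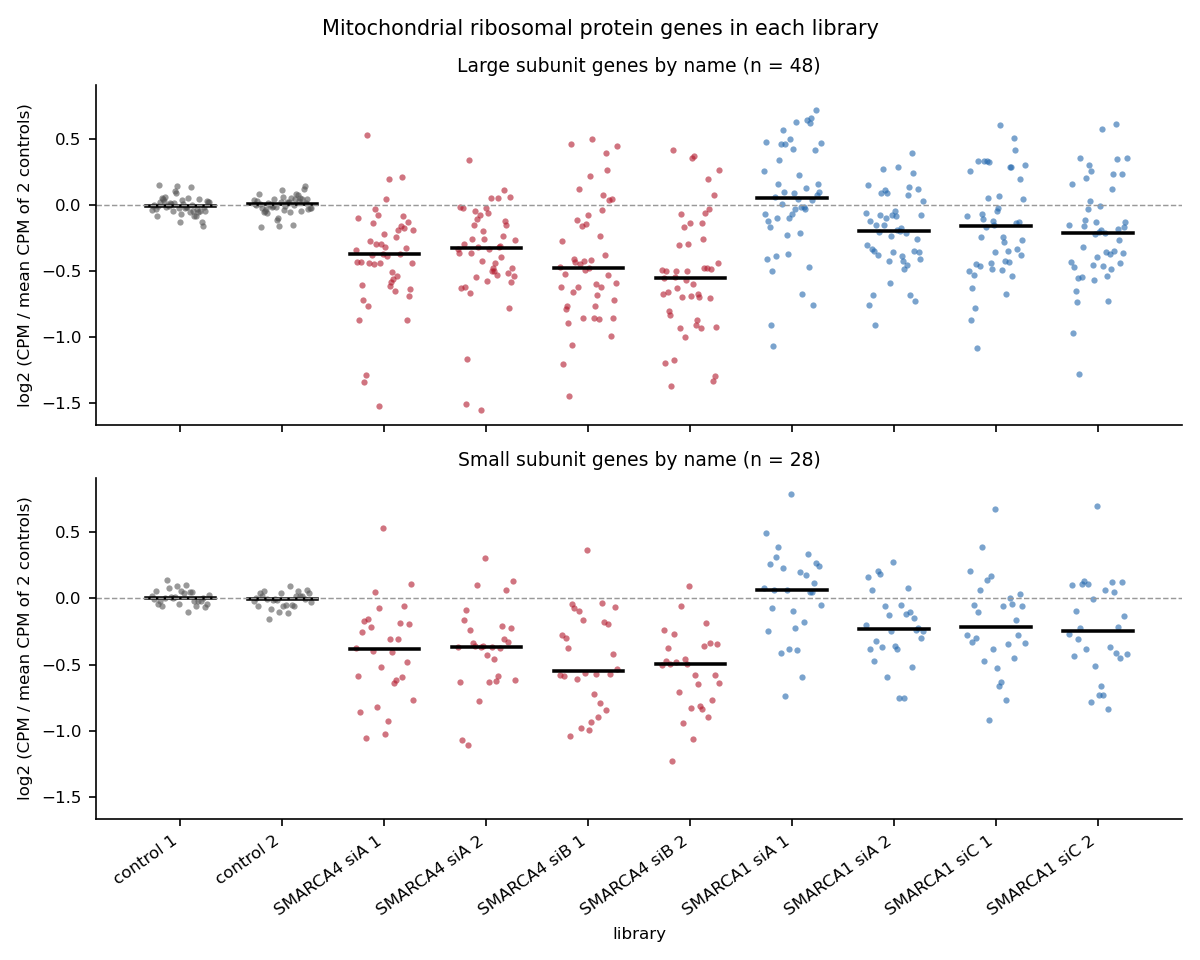
Each point is 1 tested gene in 1 library, as the log2 ratio of its CPM to the mean CPM of the 2 control libraries (vertical axis, log2 units), for 48 large subunit genes (upper panel) and 28 small subunit genes (lower panel) by name; black bars are medians over genes. The 4 *SMARCA4* libraries have medians between -0.54 and -0.32 in both panels, and the first *SMARCA1* siRNA A library, at 0.05 and 0.07, lies above the other 3 *SMARCA1* libraries.

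*MRPL30*, a large subunit gene with a bacterial counterpart, had the largest fall. It was at 37.2 and 34.6 CPM in the controls, 14.7 and 16 CPM with *SMARCA4* siRNA A and 13.2 and 13.9 CPM with siRNA B. The highest knockdown library was at 16 CPM, so that no library overlapped the controls (log2 fold change -1.32 ± 0.11 SE, edgeR adjusted p = 1.7e-05). *MRPL15*, which has a bacterial counterpart too, was at 67.2 and 58.0 CPM in the controls, 21.8 and 21.4 CPM with siRNA A and 34.7 and 31.3 CPM with siRNA B (-1.23 ± 0.10 on the log2 scale, edgeR adjusted p = 1.9e-05). *MRPL35* went from 46.0 and 44.6 CPM to 17.9 and 16 CPM with siRNA A and 24.4 and 25.4 CPM with siRNA B (-1.14 ± 0.10, edgeR adjusted p = 2.1e-05). In both of these genes the libraries of siRNA A were the lowest of all 10.

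*MRPL12* encodes the protein of the flexible stalk that recruits translation factors. Its controls were at 27.7 and 34.3 CPM, and the *SMARCA4* libraries at 17 and 18.1 CPM (siRNA A) and 15.6 and 12.3 CPM (siRNA B), without overlap (-0.99 ± 0.19, edgeR adjusted p = 0.0019). Of the bases in its exons, 69.5% are shared with a second gene entry on the same strand that had 0 counts in all libraries, so that reads there may have been left uncounted. The stalk base genes *MRPL10* and *MRPL11* differed: *MRPL11* fell (-0.72 ± 0.09, edgeR adjusted p = 0.00023), and *MRPL10* was at 0.23 ± 0.11 with an edgeR adjusted p of 0.12. *MRPL24*, whose bacterial relative acts early in subunit assembly, was at 48.8 and 50.8 CPM in the controls, 27.2 and 32.2 CPM with siRNA A and 21.6 and 21.8 CPM with siRNA B (-0.97 ± 0.12, edgeR adjusted p = 0.00015). *MRPL58*, a peptidyl-tRNA hydrolase that became part of the large subunit, fell less (-0.39 ± 0.12, edgeR adjusted p = 0.022), and that call was lost without control replicate 1 or 2, *SMARCA4* siRNA A replicate 1 or 2, or siRNA B replicate 2 (adjusted p = 0.11, 0.19, 0.077, 0.061 and 0.094).

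Among the small subunit genes, *MRPS25*, specific to mitochondria, fell most. It was at 56.5 and 61.3 CPM in the controls, 28.3 and 27.4 CPM with *SMARCA4* siRNA A and 28.7 and 25.1 CPM with siRNA B, so that every knockdown library was at most at 28.7 CPM (-1.11 ± 0.12, edgeR adjusted p = 8.2e-05). *MRPS33*, also specific to mitochondria, was at 47.1 and 44.2 CPM in the controls and between 21.9 and 29.4 CPM in the 4 knockdown libraries (-0.88 ± 0.11, edgeR adjusted p = 0.00017). *MRPS27*, a pentatricopeptide repeat protein of the small subunit, was at 54.2 and 53.7 CPM in the controls, 30.6 and 31.6 CPM with siRNA A and 27.4 and 28.1 CPM with siRNA B (-0.88 ± 0.09, edgeR adjusted p = 6.7e-05). *MRPS17* and *MRPS14*, relatives of bacterial proteins, followed at -0.80 ± 0.18 (edgeR adjusted p = 0.0051, or 0.069 without control replicate 1) and -0.75 ± 0.11 (edgeR adjusted p = 0.00036). *MRPS12*, a protein of the decoding centre, was at 35.4 and 38.7 CPM in the controls and between 24.8 and 32.4 CPM in the knockdown and missed the threshold (-0.35 ± 0.13, edgeR adjusted p = 0.054).

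*MRPL44*, an RNase III-like protein of the large subunit, was the 1 gene that rose. It was at 44.3 and 41.5 CPM in the controls, 61.8 and 54.2 CPM with siRNA A and 58.9 and 57.3 CPM with siRNA B (0.44 ± 0.10, edgeR adjusted p = 0.0066). Both controls lay below every *SMARCA4* library, and the adjusted p was 0.059 without control replicate 2. *MRPS36*, which is not in the ribosome, was at 20.3 and 20.0 CPM in the controls and 18.9 to 21.6 CPM in the knockdown, with overlapping groups (0.00 ± 0.11, edgeR adjusted p = 1.0). The 3 *MRPS18* paralogs did not pass, with *MRPS18A* at 0.33 ± 0.15, *MRPS18B* at -0.26 ± 0.13 and *MRPS18C* at -0.26 ± 0.15 (edgeR adjusted p = 0.094, 0.14 and 0.18). Without control replicate 1, the median log2 fold change of the 76 genes was -0.39. Without the first or second *SMARCA1* siRNA A library, that median was -0.42 and -0.40. The counts of called genes moved more, as described below, and the cause was not tested.

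**Figure D2:**
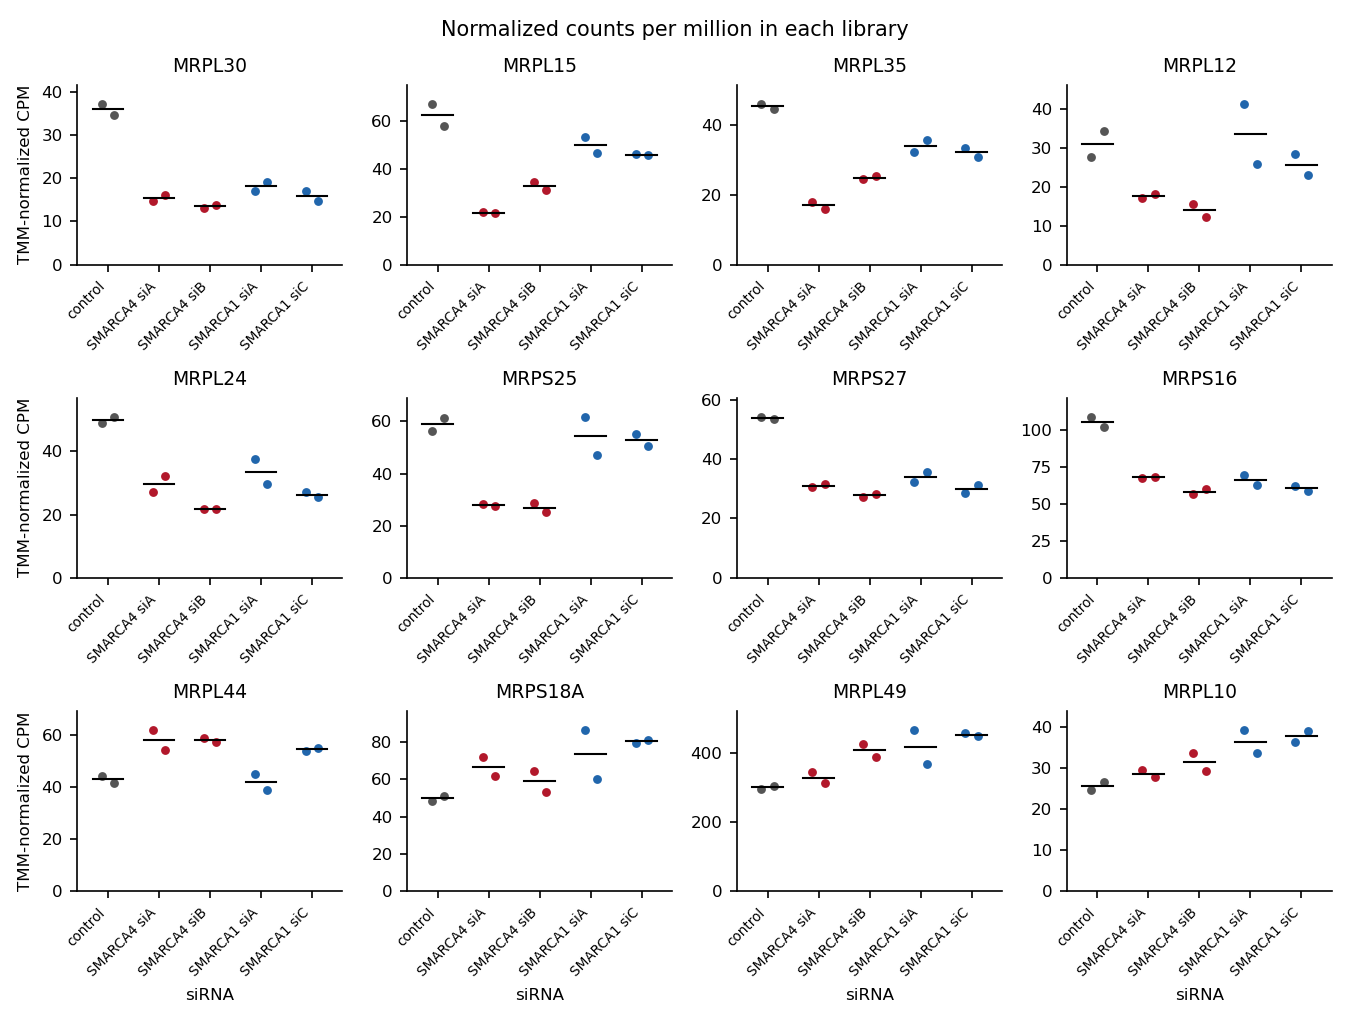
TMM-normalized CPM (vertical axis, from 0) of 12 genes in each library, grouped by siRNA; points are single libraries (n = 2 for each siRNA and for the control) and bars their means. *MRPL30*, *MRPL24*, *MRPS27* and *MRPS16* were low with all 4 siRNAs, *MRPL15*, *MRPL35*, *MRPL12* and *MRPS25* were lower with the *SMARCA4* than with the *SMARCA1* siRNAs, and *MRPS18A*, *MRPL49* and *MRPL10* had their highest means with *SMARCA1* siRNAs.

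In *SMARCA1* knockdown, fewer of these genes differed from control, and they did so in both directions. Of the 76 genes, 22 fell and 5 rose (edgeR, adjusted p below 0.05), against 23.0% and 23.8% of all tested genes. The 22 genes were 28.9% of those tested, close to the share of all genes that fell, and the 5 were 6.58%. The median log2 fold change was -0.14. Large subunit genes counted 14 lower and 4 higher of 48, and small subunit genes 8 lower and 1 higher of 28. All 4 *SMARCA1* libraries were below both controls for 27 genes and above both for 13, and this held for 29.1% of all tested genes in each direction.

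The first library of *SMARCA1* siRNA A stood apart from the rest. The 78 genes summed to 4074.8 and 4049.6 CPM in the controls, 4336.9 and 3596.1 CPM with *SMARCA1* siRNA A and 3734.6 and 3648.3 CPM with siRNA C, so that this library was above both controls and the other 3 were below them. Its median log2 ratio to control was 0.06, and those of the other 3 were -0.20, -0.16 and -0.21. Replicate counts of this siRNA also differed most, with a chi-square of 55.8 per gene. It was 39.9 and 21.4 for *SMARCA4* siRNA A and B, 5.94 for the control and 3.69 for *SMARCA1* siRNA C. The measure treats both replicates alike, so that it does not single out the first library. Without the first library, the median log2 fold change of the 76 genes in *SMARCA1* knockdown was -0.24 (all tested genes -0.02). Without the second library of siRNA A it was -0.03 (all tested genes 0.02). Without control replicate 1 or 2 it was -0.11 and -0.08 (all tested genes 0.02 and 0.04). Without siRNA C replicate 1 or 2 it was -0.15 and -0.13 (all tested genes -0.01 in both).

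*MRPL30* had the largest fall in this comparison too, with 17.1 and 19.1 CPM with *SMARCA1* siRNA A and 17 and 14.8 CPM with siRNA C (-1.08 ± 0.11, edgeR adjusted p = 6.9e-05). Its 4 libraries lay below both controls, which are given above. *MRPL19* was at 75.9 and 60.9 CPM in the controls, 36.5 and 42.7 CPM with siRNA A and 39.8 and 41.1 CPM with siRNA C (-0.77 ± 0.11, edgeR adjusted p = 0.00048). Its controls differed from each other by more than the 4 knockdown libraries did. *MRPL24* had *SMARCA1* libraries at 37.5 and 29.5 CPM (siRNA A) and 27.2 and 25.4 CPM (siRNA C) (-0.75 ± 0.12, edgeR adjusted p = 0.00076). *MRPL42*, specific to mitochondria, had controls at 94.1 and 77.3 CPM and *SMARCA1* libraries between 51.7 and 61.4 CPM (-0.64 ± 0.11, edgeR adjusted p = 0.001). *MRPL45*, which anchors the ribosome at the inner membrane beside the exit of the nascent chain, was at 45.8 and 47.6 CPM in the controls and 29.2 to 36.7 CPM in the knockdown (-0.51 ± 0.10, edgeR adjusted p = 0.0029); reads of its pseudogene entries came to 5.233% of its own.

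*MRPS27* was at 32.3 and 35.8 CPM with *SMARCA1* siRNA A and 28.5 and 31.4 CPM with siRNA C, all below its controls (-0.76 ± 0.09, edgeR adjusted p = 0.0002). *MRPS16*, a relative of a bacterial protein, had controls at 109 and 102 CPM, siRNA A libraries at 70.0 and 62.7 CPM and siRNA C libraries at 62.1 and 59.1 CPM (-0.74 ± 0.09, edgeR adjusted p = 0.00019). In *SMARCA4* knockdown the same gene was at 67.7, 68.6, 56.7 and 59.9 CPM (-0.74 ± 0.09, edgeR adjusted p = 0.00014). *MRPS28* and *MRPS33* fell by 0.62 ± 0.14 and 0.48 ± 0.11 on the log2 scale (edgeR adjusted p = 0.0055 and 0.0054, or 0.093 and 0.078 without control replicate 1). *MRPS30*, a large subunit protein despite its name, fell by 0.41 ± 0.09 (edgeR adjusted p = 0.0051, or 0.096 without control replicate 1).

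The 5 genes that rose in *SMARCA1* knockdown all encode large subunit proteins. *MRPS18A* was at 48.5 and 51.3 CPM in the controls, 86.5 and 60.4 CPM with siRNA A and 79.8 and 81.2 CPM with siRNA C (0.62 ± 0.15, edgeR adjusted p = 0.0072, or 0.063 without control replicate 1). The first siRNA A library was the highest and the second the lowest of the 4, and both were above the controls. Of its exon bases, 50.9% lie opposite those of *RSPH9*. *MRPL10*, which holds the stalk protein MRPL12 on the ribosome, was at 24.6 and 26.5 CPM in the controls and 39.2, 33.6, 36.3 and 39.1 CPM in the knockdown (0.54 ± 0.11, edgeR adjusted p = 0.0035). *MRPL49* had the highest CPM of the 78 genes, with 296 and 305 CPM in the controls, 465 and 366 CPM with siRNA A and 458 and 447 CPM with siRNA C (0.53 ± 0.11, edgeR adjusted p = 0.0039). *MRPL27* (0.42 ± 0.13, edgeR adjusted p = 0.024) and *MRPL22*, which lines the exit tunnel (0.32 ± 0.11, edgeR adjusted p = 0.031), rose less, and the call of *MRPL27* was lost without control replicate 1 or 2 or siRNA C replicate 1 or 2 (adjusted p = 0.078, 0.13, 0.064 and 0.052).

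Genes in *SMARCA1* knockdown whose groups overlapped included *MRPL12*, with 41.3 and 25.9 CPM with siRNA A and 28.3 and 22.9 CPM with siRNA C (-0.08 ± 0.19, edgeR adjusted p = 0.75). *MRPS25* was at 61.7, 47.1, 55.0 and 50.4 CPM, with the first library above both controls (-0.14 ± 0.12, edgeR adjusted p = 0.38). *MRPL55*, *MRPL58*, *MRPS12*, *MRPS18B*, *MRPS18C* and *MRPS36* missed the threshold as well, at log2 fold changes between -0.33 and 0.28. *MRPL11* fell by 0.28 ± 0.10 (edgeR adjusted p = 0.037), a call that was lost without any 1 library other than those of *SMARCA1* siRNA A (adjusted p from 0.068 to 0.20).

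**Figure D3:**
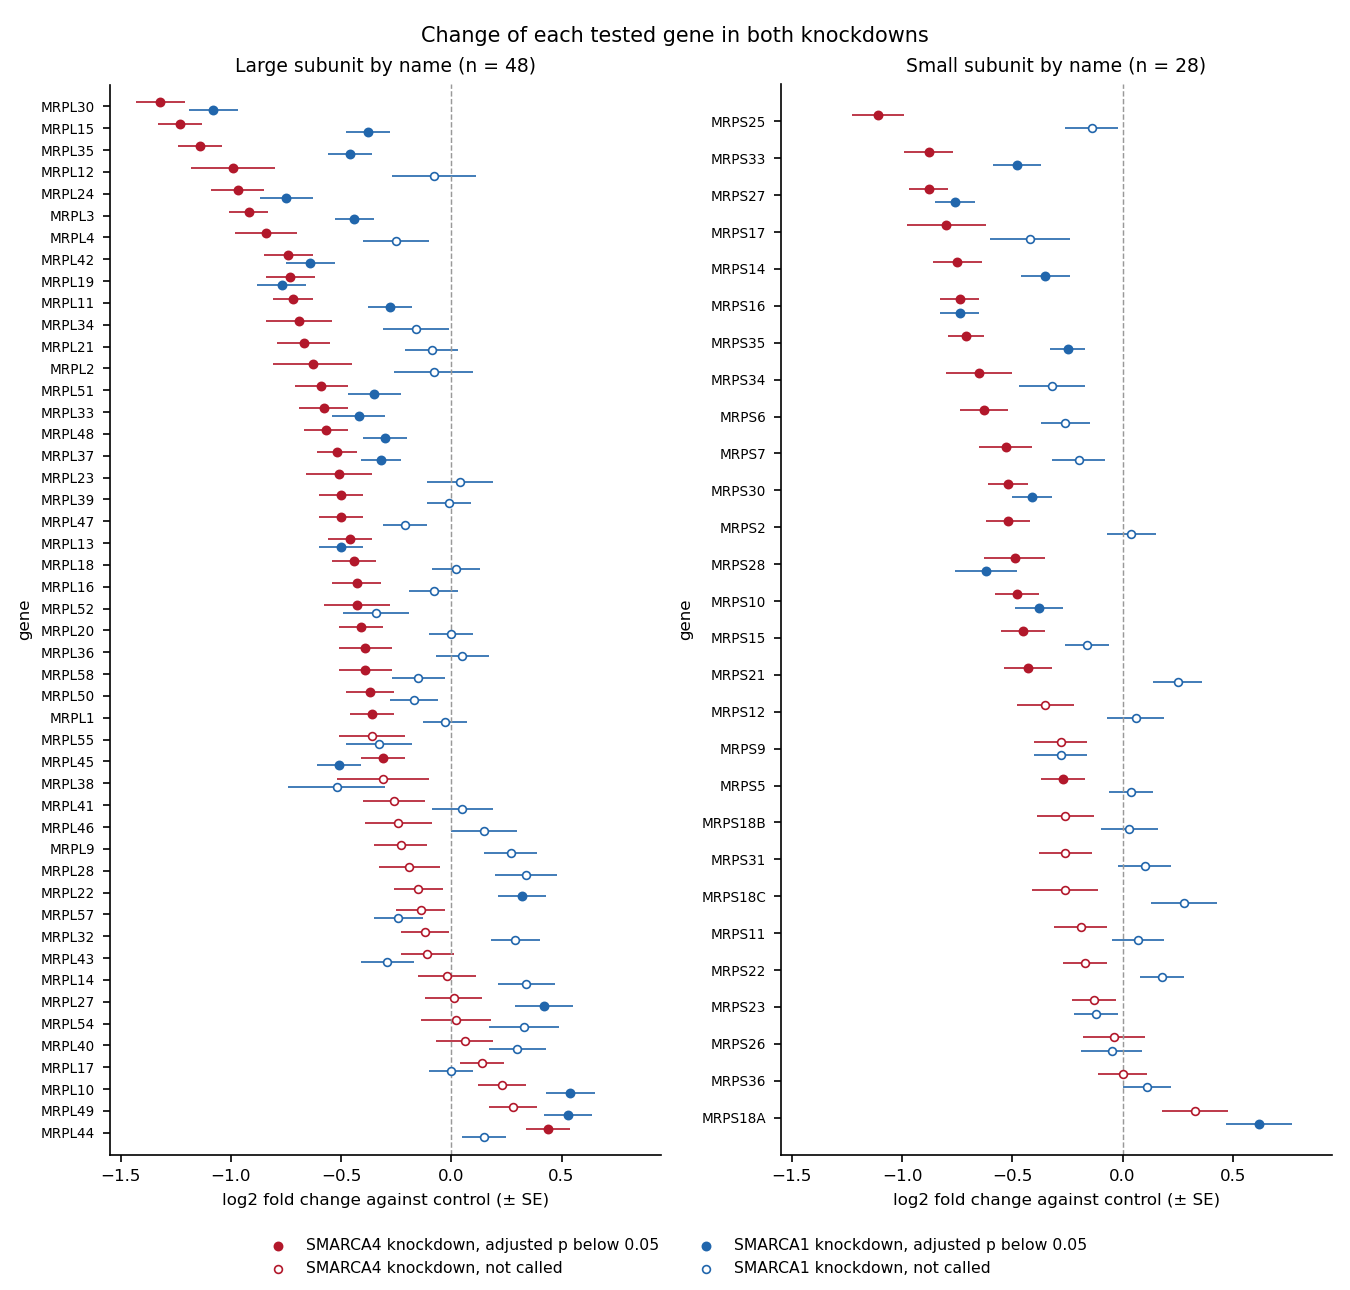
Log2 fold change against control with its standard error (horizontal axis) for the 48 large and 28 small subunit genes by name that were tested, ordered by the *SMARCA4* value; red marks *SMARCA4* and blue *SMARCA1* knockdown, and filled points passed an adjusted p of 0.05 (edgeR). Red points are filled for 48 genes, 47 of them below 0, and blue points for 27 genes, 22 below 0 and 5 above; both colours use the same 2 control libraries.

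Direct comparison of the knockdowns set their 8 libraries against each other; the controls entered the fit through the filter, the scaling and the spread, and without them 40 genes were lower and 1 higher as well. Transcripts were lower in *SMARCA4* than in *SMARCA1* knockdown for 40 of the 76 genes and higher for 1 (edgeR, adjusted p below 0.05), against 19.1% and 16.3% of all tested genes. The median log2 difference was -0.32. Large subunit genes counted 26 lower and 1 higher of 48 (median -0.31), and small subunit genes 14 lower and 0 higher of 28 (median -0.32). All 4 *SMARCA4* libraries were below all 4 *SMARCA1* libraries for 37 genes and above them for 0, while this held for 13.8% and 13.0% of all tested genes. Leaving out the first *SMARCA1* siRNA A library gave a median difference of -0.23. Leaving out *SMARCA4* siRNA B replicate 2 or *SMARCA1* siRNA C replicate 1 gave -0.29 and -0.30.

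*MRPS25* and *MRPL12* differed most between the knockdowns, at -0.97 ± 0.10 (edgeR adjusted p = 0.00016) and -0.91 ± 0.16 (edgeR adjusted p = 0.002). Their libraries, given above, did not overlap: the highest *SMARCA4* library was at 28.7 CPM for *MRPS25* and 18.1 CPM for *MRPL12*, and the lowest *SMARCA1* library at 47.1 and 22.9 CPM. *MRPL15* was at 53.5, 46.6, 46.1 and 45.7 CPM in *SMARCA1* knockdown and *MRPL35* at 32.1, 35.5, 33.3 and 30.9 CPM, so that both lay between the control and the *SMARCA4* libraries. Their differences were -0.84 ± 0.09 and -0.68 ± 0.08 (edgeR adjusted p = 0.00015 and 0.0003). *MRPS21*, a relative of a bacterial protein, was at 30.8 and 31.1 CPM in the controls, 20.6, 20.0, 25.6 and 26.3 CPM in *SMARCA4* knockdown and 43.7, 34.7, 35.8 and 33.3 CPM in *SMARCA1* knockdown (-0.68 ± 0.09, edgeR adjusted p = 0.00049). For this gene the 2 knockdowns lay on opposite sides of the controls.

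*MRPL44* was the gene higher in *SMARCA4* than in *SMARCA1* knockdown (0.28 ± 0.08, edgeR adjusted p = 0.023), although its groups overlapped. The lowest *SMARCA4* library was at 54.2 CPM, and the *SMARCA1* libraries were at 44.8 and 38.7 CPM with siRNA A and 54.0 and 54.8 CPM with siRNA C. The call was lost without *SMARCA1* siRNA C replicate 1 or 2, *SMARCA4* siRNA A replicate 1, or siRNA B replicate 1 or 2 (adjusted p = 0.09, 0.076, 0.069, 0.056 and 0.062). *MRPL30*, *MRPL24* and *MRPS27* did not reach the threshold in this comparison, with differences of -0.23 ± 0.09, -0.23 ± 0.10 and -0.12 ± 0.08 (edgeR adjusted p = 0.072, 0.10 and 0.25). *MRPS16* differed by -0.01 ± 0.07 (edgeR adjusted p = 0.94) and *MRPL19* by 0.05 ± 0.09 (edgeR adjusted p = 0.72).

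Proteins with a bacterial counterpart and those specific to mitochondria were counted apart. In *SMARCA4* knockdown, 32 of 45 tested genes with a counterpart fell and 0 rose (median -0.48), and 15 of 30 specific genes fell and 1 rose (median -0.31). Between the knockdowns the counts were 32 of 45 lower (median -0.40) and 8 of 30 lower with 1 higher (median -0.24). By subunit, 23 of 30 large subunit genes with a counterpart and 3 of 20 specific ones were lower in *SMARCA4* than in *SMARCA1* knockdown, and of the small subunit genes 9 of 15 and 5 of 10 were. Against control, *SMARCA1* knockdown gave 13 of 45 genes lower and 3 higher (median -0.09) and 9 of 30 lower and 2 higher (median -0.16). Among all tested genes the shares lower and higher were 22.3% and 22.8% for *SMARCA4*, 23.0% and 23.8% for *SMARCA1* and 19.1% and 16.3% between the knockdowns, so that the shares that fell in *SMARCA1* knockdown (28.9% and 30.0%) lay near that of all genes. These groups differ in their genes and were not tested against each other.

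The balance of the subunits was described by the ratio of their summed CPM. Large to small was 1.78 and 1.77 in the controls, 1.81 and 1.8 with *SMARCA4* siRNA A, 1.99 and 2.0 with siRNA B, 1.90 and 1.87 with *SMARCA1* siRNA A and 1.94 and 1.92 with siRNA C. Every knockdown library was thus above both controls. *MRPL49* alone made up 296 and 305 CPM of the control sums. When it was left out, a choice made after its values were seen, the ratio was 1.58 and 1.56 in the controls, 1.51 to 1.6 in *SMARCA4* and 1.56 to 1.58 in *SMARCA1* knockdown, and the groups overlapped.

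Levels were compared between genes per kilobase of exon in the controls, where the 76 tested genes had a median of 17.3 CPM per kilobase, against 2.93 for all tested genes. The median was 19.4 for large and 12.2 for small subunit genes. *MRPS26* (114 and 121 CPM per kilobase in the 2 controls) and *MRPL41* (115 and 119) were the highest and did not differ beyond their spread, followed by *MRPL49* at 96.0 and 99.1. At the other end were *MRPL2* (1.16 and 1.13), *MRPL46* (0.973 and 1.09) and *MRPL38* (0.551 and 0.656), a span of 196-fold from the highest mean to the lowest. Of the 75 pairs of neighbours in this order, 27 were separated in both controls and 48 overlapped. Exon length is that of all annotated exons, and 29.2% of the exon bases of *MRPL2* and 41.1% of those of *MRPL38* are shared with another gene on the same strand. Response and level showed little relation: across the 76 genes, which share their libraries, the log2 level per kilobase and the *SMARCA4* log2 fold change had r = 0.06 and rho = 0.01.

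The 2 genes that were not tested were *MRPL53* and *MRPS24*. *MRPL53* was listed at 0 counts in every library, and 72.8% of its exon bases are shared with *CCDC142* on the same strand. *MRPS24* had 39 counts in total over the 10 libraries and shares 23.2% of its exon bases with the readthrough gene *URGCP-MRPS24*. Neither value is a measure of how much the gene was transcribed, since reads on shared exons may not be assigned to a single gene. Besides these, more than 20% of the exon bases were shared on the same strand for *MRPL2*, *MRPL12*, *MRPL33*, *MRPL38*, *MRPS17* and *MRPS28*, whose values are uncertain for this reason. Exons on the opposite strand covered more than 20% of 10 genes, among them *MRPS18A* and *MRPS25* (22.4%, with *NR2C2*), and whether strand was used in counting is not given in the sources used here, so that reads of such pairs may not be told apart.

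**Figure D4:**
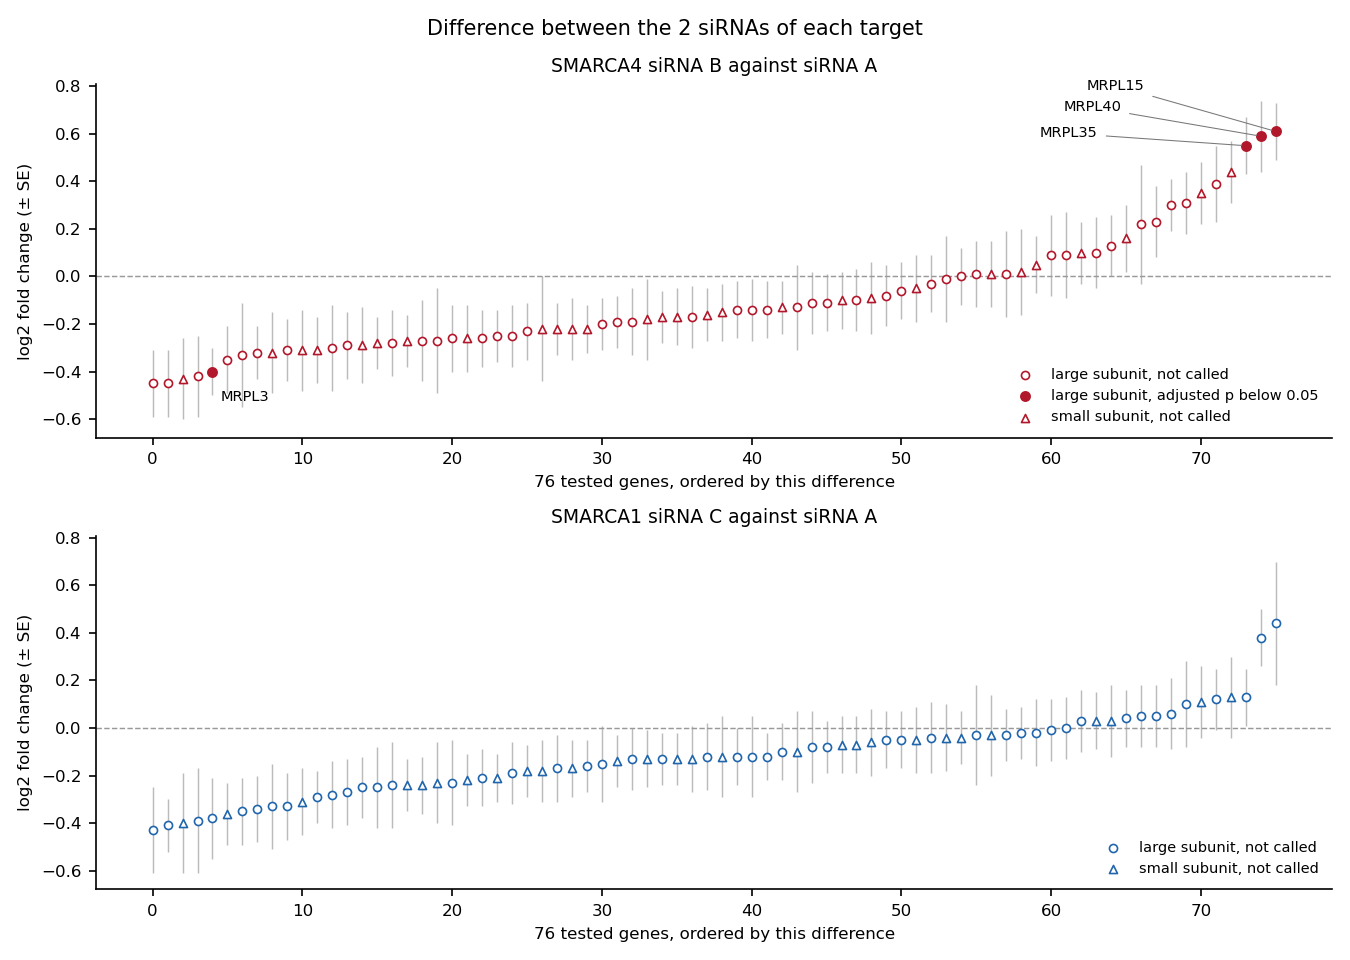
Log2 fold change with its standard error (vertical axis) between the 2 siRNAs of each target for the 76 tested genes, each panel in its own order; circles are large and triangles small subunit genes by name, and filled symbols passed an adjusted p of 0.05 (edgeR). For *SMARCA4* (upper panel), *MRPL15*, *MRPL40* and *MRPL35* were higher and *MRPL3* lower with siRNA B; for *SMARCA1* (lower panel), 0 genes were called.

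Each siRNA was also compared with control. *SMARCA4* siRNA A gave 33 genes lower and 1 higher (background 15.8% and 17.4% of all tested genes), and siRNA B 49 lower and 2 higher (background 21.9% and 23.0%). *SMARCA1* siRNA A gave 13 lower and 5 higher (background 16.3% and 18.5%), and siRNA C 27 lower and 4 higher (background 21.5% and 23.8%). These counts shared the 2 controls. For *MRPL30* the log2 fold change was -1.23 and -1.40 with *SMARCA4* siRNA A and B and -0.99 and -1.18 with *SMARCA1* siRNA A and C, each ± 0.13 SE (edgeR adjusted p = 0.00015, 3.5e-05, 0.00059 and 0.00013). Leaving out 1 library moved the counts of called genes, and the backgrounds given here belong to the fits with all libraries. Medians of the 76 genes were -0.37, -0.51, -0.07 and -0.20 for the 4 siRNAs in this order. For *SMARCA4* siRNA A the median was -0.31, -0.34, -0.31 and -0.36 without its own replicate 1 or 2 or control replicate 1 or 2. For siRNA B it was -0.46 without control replicate 1. For *SMARCA1* siRNA A it was -0.02 and -0.04 without control replicate 1 or 2 and 0.11 without its own replicate 2. For siRNA C it was -0.23, -0.17 and -0.20 without its own replicate 1 or 2 or control replicate 1.

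Between the 2 *SMARCA4* siRNAs, 1 gene was lower and 3 were higher with siRNA B (edgeR), against 3.04% and 3.17% of all tested genes. *MRPL15* and *MRPL35* differed by 0.61 ± 0.12 and 0.55 ± 0.12 (edgeR adjusted p = 0.023 and 0.026), in the libraries given above. *MRPL40*, specific to mitochondria, had siRNA A libraries at 22.9 and 21.7 CPM and siRNA B libraries at 35.5 and 31.4 CPM, on either side of its controls at 26.5 and 25.7 CPM (0.59 ± 0.15, edgeR adjusted p = 0.045). *MRPL3* was at 186 and 178 CPM in the controls, 107 and 115 CPM with siRNA A and 87.4 and 80.7 CPM with siRNA B (-0.40 ± 0.10, edgeR adjusted p = 0.047). The 4 calls were lost without any of several single libraries. With 1 library left out, the differences ranged from 0.56 to 0.68 for *MRPL15* and from 0.48 to 0.63 for *MRPL35*. For *MRPL40* they ranged from 0.52 to 0.66 and for *MRPL3* from -0.45 to -0.34. Between the 2 *SMARCA1* siRNAs, edgeR called 0 of the 76 genes (9 had an unadjusted p below 0.05) and DESeq2 called 0, while edgeR called 0% of all tested genes lower and 0.0118% higher with siRNA C. The median log2 difference of the 76 genes, siRNA C against siRNA A, was -0.12 with all libraries. Without the second library of *SMARCA1* siRNA A it was -0.25, against 0.01 for all tested genes.

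Close neighbours that start on the opposite strand within 500 bases were found for 24 of the 69 genes with a window (34.8%), against 18.9% of all genes and 26.6% of tested genes. The neighbour was tested too for 17 genes, of which *MRPL46* and *MRPS11* are neighbours of each other. *MRPS27* and *PTCD2*, which start 133 bases apart, both fell in *SMARCA4* knockdown (-0.88 ± 0.09 and -0.63 ± 0.12, edgeR adjusted p = 6.7e-05 and 0.002). *MRPL18* and *TCP1*, a subunit of the cytosolic chaperonin, did so too (-0.44 and -0.89, edgeR adjusted p = 0.0068 and 6.5e-05), as did *MRPL37* and *CYB5RL*. Neither gene passed in some pairs, such as *MRPL46* and *MRPS11* (edgeR adjusted p = 0.22 and 0.23) and *MRPL32* and *PSMA2* (0.4 and 0.65). Further pairs differed in their calls. *MRPL30* starts 126 bases from *MITD1*, which was at 0.09 ± 0.17 (edgeR adjusted p = 0.69), and *MRPS7* and *MRPL50* fell while their neighbours *GGA3* and *ZNF189* rose (*MRPS7* -0.53 and *GGA3* 0.76, edgeR adjusted p = 0.0047 and 0.00024).

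Other genes of mitochondrial gene expression were counted from lists drawn up by function, with earlier results of these data known. Counts are to be read against all tested genes, of which *SMARCA4* knockdown lowered 22.3% and raised 22.8%, and *SMARCA1* knockdown 23.0% and 23.8%. Among the ribosomal proteins with other names, *DAP3* and *PTCD3* of the small subunit fell in *SMARCA4* knockdown (-0.63 ± 0.09 and -0.78 ± 0.10, edgeR adjusted p = 0.00043 and 0.00025), and *AURKAIP1*, *CHCHD1* and *GADD45GIP1* did not pass (-0.33, 0.03 and -0.09). Translation factors and membrane insertion counted 10 of 15 lower and 0 higher in *SMARCA4* knockdown, and 7 lower and 1 higher in *SMARCA1* knockdown. *LRPPRC*, which stabilizes mitochondrial messenger RNAs, was at a mean of 491 CPM in the controls, 222 CPM in *SMARCA4* and 312 CPM in *SMARCA1* knockdown (-1.19 ± 0.12 and -0.66 ± 0.13, edgeR adjusted p = 6.9e-05 and 0.0023). *MRRF*, the ribosome recycling factor, fell by 1.02 ± 0.11 and 0.92 ± 0.11 (edgeR adjusted p = 7.2e-05 and 0.00017). Ribosome assembly and rRNA modification counted 10 of 26 lower and 0 higher, and 6 lower and 2 higher, respectively. Aminoacyl-tRNA synthetases of mitochondria counted 7 of 16 lower and 2 higher, and 4 lower and 4 higher. Genes of mitochondrial DNA transcription and replication counted 3 of 8 lower and 1 higher, and 2 lower and 1 higher. In *SMARCA1* knockdown the shares lower for assembly (23.1%), synthetases and mitochondrial DNA genes (4 of 16 and 2 of 8) were near that of all genes.

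**Figure D5:**
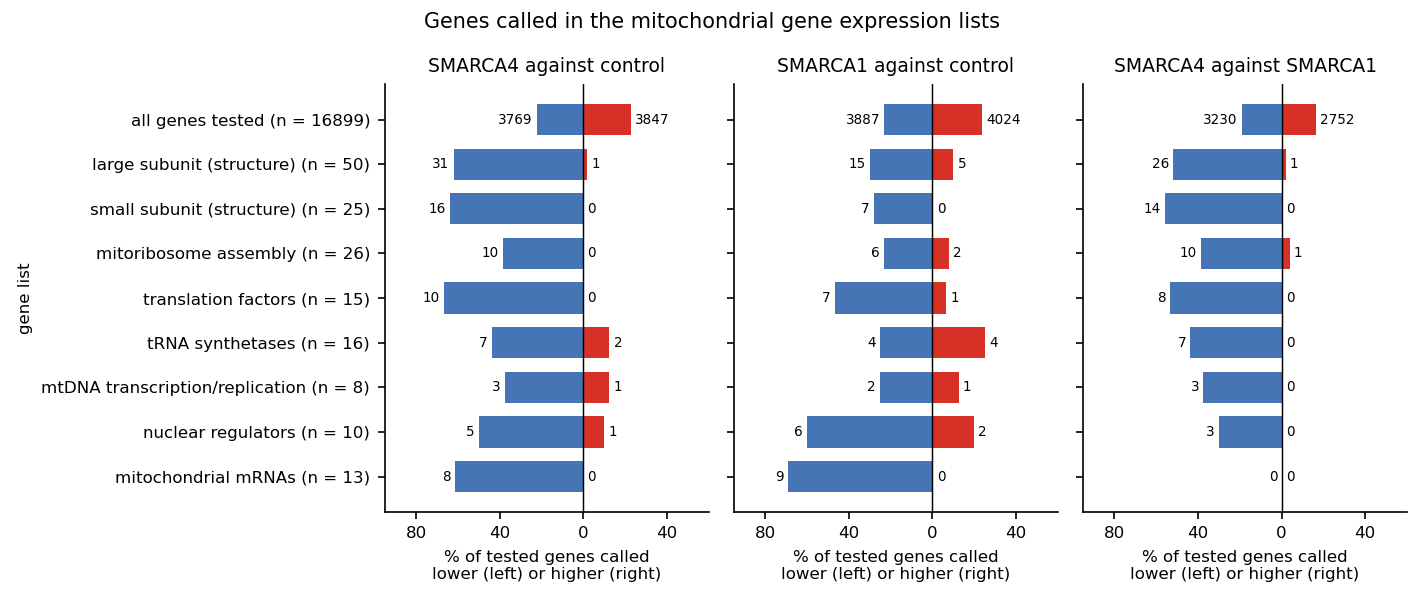
Share of the tested genes in each list that edgeR called lower (blue, to the left) or higher (red, to the right), in percent on the horizontal axis, for each knockdown against control and for *SMARCA4* against *SMARCA1*; numbers beside the bars are gene counts and n the genes tested. Large and small subunit genes by structure had 31 of 50 and 16 of 25 lower in *SMARCA4* knockdown, and mitochondrial messenger RNAs had 0 of 13 called between the knockdowns.

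*TWNK*, the helicase of mitochondrial DNA, and *TFB2M*, a mitochondrial transcription factor, fell in *SMARCA4* knockdown (-1.09 ± 0.12 and -0.94 ± 0.10, edgeR adjusted p = 0.00011 and 9e-05), and *TWNK* was at -0.13 ± 0.13 in *SMARCA1* knockdown (edgeR adjusted p = 0.44). Between the knockdowns these 2 genes differed by -0.97 ± 0.11 and -0.65 ± 0.09 (edgeR adjusted p = 0.0002 and 0.0005). Nuclear regulators of mitochondrial genes counted 5 of 10 lower and 1 higher in *SMARCA4* knockdown, and 6 lower and 2 higher in *SMARCA1* knockdown. Levels of *MYC* were 318 and 328 CPM in the controls, 87.4, 102, 42.2 and 25.8 CPM in *SMARCA4* knockdown and 178, 188, 164 and 171 CPM in *SMARCA1* knockdown, with no overlap between the 3 groups (-2.51 ± 0.16 and -0.89 ± 0.16, edgeR adjusted p = 4.5e-06 and 0.0015). *GABPA*, an ETS factor of mitochondrial genes, fell by 0.77 ± 0.20 and 0.74 ± 0.20 (edgeR adjusted p = 0.0098 and 0.012), and *NRF1* and *YY1* fell by between 0.27 and 0.31 on the log2 scale in both knockdowns (edgeR adjusted p from 0.03 to 0.047). Whether these changes bear on the ribosomal protein genes was not tested.

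The 13 messenger RNAs of the mitochondrial genome, which these ribosomes translate, resembled the 76 genes in *SMARCA4* knockdown (61.5% and 61.8% lower). In *SMARCA1* knockdown (69.2% and 28.9% lower) and between the knockdowns they did not. Of the 13, 8 fell and 0 rose in *SMARCA4* knockdown (median -0.46), and 9 fell and 0 rose in *SMARCA1* knockdown (median -0.58). Among all tested genes, 22.3% and 23.0% fell, respectively. The 2 *SMARCA4* siRNAs differed: 2 of 13 fell with siRNA A (median -0.23) and 9 with siRNA B (median -0.69). Of all tested genes, 15.8% fell with siRNA A, near the 15.4% of these 13, and 21.9% with siRNA B. Against 3.04% of all tested genes, 5 of the 13 were called lower with siRNA B than with siRNA A (edgeR). Against 16.3% and 21.5% of all tested genes, 6 of the 13 fell with *SMARCA1* siRNA A (median -0.47) and 9 with siRNA C (median -0.71). Their summed level was 15725.9 and 16337.0 CPM in the controls, 10031.5 to 15813.1 CPM in *SMARCA4* and 10230.3 to 13501.0 CPM in *SMARCA1* knockdown, and *SMARCA4* siRNA A replicate 2 overlapped the controls. *MT-CO3*, a subunit of cytochrome c oxidase, fell by 1.16 ± 0.19 and 1.37 ± 0.19 (edgeR adjusted p = 0.00088 and 0.00038), while *MT-CO2* of the same enzyme was at 0.04 ± 0.10 and 0.00 ± 0.10 (edgeR adjusted p = 0.76 and 1.0). Between the knockdowns, edgeR called 0 of the 13 (3 had an unadjusted p below 0.05) and DESeq2 called 0 lower and 1 higher in *SMARCA4* knockdown, and the median difference was 0.15.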

How the data were processed

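RNA-seq libraries from 10 VCaP samples were analysed. Per the labels, poly(A) RNA was prepared with a strand-specific kit, and the submitters' processing notes name HISAT2 2.1.0 and featureCounts 1.5.2 with GRCh38. The deposited files hold the raw counts per gene that the authors obtained. The annotation release and the strand setting of the counting are not given in the sources used here. Counts of 3 per library set the floor, which covers counting error only. Standard errors come from edgeR's fit and include the spread between libraries.

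Groups were taken from the sample labels. Low counts were filtered with filterByExpr (edgeR 4.0.16, count of at least 10, total of at least 15), and 16899 genes remained. Counts were TMM-normalized and fitted with the quasi-likelihood test in R 4.3.3 over 5 groups and all 10 libraries, and a knockdown was the mean of its 2 siRNAs. P-values were adjusted by Benjamini-Hochberg over all tested genes, and an adjusted p below 0.05 was a call. CPM are TMM-normalized, and errors of log2 fold changes are standard errors. DESeq2 1.42.0, other normalizations, no filter, single libraries left out, a replicate block and fits on fewer libraries were alternatives. The procedure was tested on simulated data.

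The genes and lists were chosen with earlier results of these data known. Genes were named by rule: in each knockdown the 5 largest falls and 3 largest rises called in each subunit, the 5 most different between knockdowns in each direction, the 3 in each direction between siRNAs, the 3 highest and lowest per length, the untested, and MRPL11, MRPL12, MRPL55, MRPL58, MRPS12, MRPS18A, MRPS18B, MRPS18C, MRPS30 and MRPS36. Values of these in further comparisons, MRPL10 in *SMARCA4* knockdown and the pairs of neighbours were chosen after the values were seen.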

Additional observations from a re-analysis of the deposited data

Results flagged for a closer look

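In 78 tests for a single library far from the other 3 of its knockdown (a gap to the nearest library above Dixon's critical share of the whole range), 4 values stood out. Chance gives about 1 in 20 only for independent tests on libraries of a single population. Here each knockdown holds 2 siRNAs and the tests share their libraries, so that this rate does not apply as it stands. *MRPL15* was at 53.5 CPM in *SMARCA1* siRNA A replicate 1 and at 45.7 to 46.6 CPM in the other 3 *SMARCA1* libraries. In the same library *MRPL41* was at 96.0 CPM against 61.1 to 64.3 CPM, and the small subunit genes summed to 1497.9 CPM against 1251.3 to 1271.2 CPM. *MRPL55* was at 6.41 CPM in *SMARCA4* siRNA A replicate 2 and at 4.54 to 4.85 CPM in the other 3 *SMARCA4* libraries.

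Effects of the 2 *SMARCA4* siRNAs differed from each other, by the test of the difference, for *MRPL15* (0.61 higher with siRNA B on the log2 scale), *MRPL40* (0.59), *MRPL35* (0.55) and *MRPL3* (-0.40). The edgeR adjusted p-values were 0.023, 0.045, 0.026 and 0.047. Of the 76 genes, 1.32% were lower and 3.95% higher with siRNA B, near the 3.04% and 3.17% of all tested genes. These calls depended on single libraries, as described above.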

How the results depend on the processing

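With 2 controls and 2 libraries for each siRNA, counts of called genes moved most when a single library was left out. Genes lower and higher then ranged from 26 to 51 and 0 to 4 in *SMARCA4* knockdown, 8 to 35 and 2 to 15 in *SMARCA1* knockdown, and 24 to 52 and 0 to 4 between the knockdowns. For single siRNAs against control the ranges were 14 to 42 and 0 to 2 (*SMARCA4* siRNA A), 30 to 52 and 0 to 6 (siRNA B), 5 to 19 and 0 to 21 (*SMARCA1* siRNA A), and 12 to 35 and 2 to 10 (siRNA C). Between siRNAs they were 0 to 11 and 0 to 8 for *SMARCA4*, and 0 to 17 lower for *SMARCA1*. Counts of called genes among all tested genes moved in these fits too, though not always to the same degree. The ranges are therefore not to be read against the shares of all genes in the full fits. In *SMARCA1* knockdown, the median log2 fold change of the 76 genes was -0.14 with all libraries. It was -0.24 and -0.03 without siRNA A replicate 1 or 2, where the median of all tested genes was -0.02 and 0.02. The cause of these moves was not tested. Of the genes named, *MRPL12* turned from -0.08 to 0.09 or 0.10 in *SMARCA1* knockdown without *SMARCA1* siRNA A replicate 2 or control replicate 2 (range -0.27 to 0.10), *MRPS12* from 0.06 to -0.07 without siRNA A replicate 1 (range -0.07 to 0.20), and *MRPS18B* from 0.03 to -0.02 or -0.01 without siRNA A replicate 1 or siRNA C replicate 1 (range -0.02 to 0.10).

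With no filter on low counts, or with the knockdown and control libraries alone, 3 genes rose in *SMARCA4* knockdown, and 2 did with DESeq2. With no filter, 2 rose with *SMARCA4* siRNA A. For siRNA B against siRNA A of *SMARCA4*, 0 were lower with upper quartile normalization or no filter and 2 with DESeq2. By place in the structure, 0 small subunit genes rose in *SMARCA1* knockdown. With plain library totals the control sums were 2617 CPM (large) and 1474 CPM (small). *MRPS36* was at -0.04 in *SMARCA4* knockdown with upper quartile normalization (adjusted p = 0.83). *MRPL11* lost its call in *SMARCA1* knockdown with no filter (adjusted p = 0.11). *MRPS12* passed in *SMARCA4* knockdown with upper quartile normalization (adjusted p = 0.046), and *MRPS18A* with no filter (adjusted p = 0.034). Of the other values of these alternatives, 109 counts and sums and 298 gene values kept their direction and their side of the threshold.

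No label ties replicate numbers to a shared culture or batch. Deviations of same-numbered libraries correlated at 0.135, 0.363 and 0.46 among *SMARCA4* siRNA A, siRNA B and *SMARCA1* siRNA A, and between -0.174 and 0.063 for the other 7 pairs of groups, so that the numbers were not used to pair all libraries. With the replicate number as a block, 47 genes fell and 1 rose in *SMARCA4* knockdown, 22 and 6 in *SMARCA1* knockdown, and 42 and 1 differed between the knockdowns, while 0 were lower with *SMARCA4* siRNA B than with siRNA A.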

Other observations

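*MRPL20-AS1*, annotated antisense to *MRPL20* and not among the 78 genes, was at -0.07 on the log2 scale in *SMARCA4* knockdown and rose by 0.30 ± 0.11 SE in *SMARCA1* knockdown (edgeR adjusted p = 0.045). *MAX*, the partner of MYC on DNA, rose in both knockdowns, by 1.09 and 1.16 on the log2 scale (edgeR), while *PPARGC1B*, a coactivator of mitochondrial genes, fell by 1.14 and 0.70. Among the mitochondrial aminoacyl-tRNA synthetases, *IARS2* fell in both (-0.79 in *SMARCA4* and -0.80 in *SMARCA1* knockdown, edgeR), and *MARS2* fell by 0.97 in *SMARCA4* knockdown and was at -0.09 in *SMARCA1* knockdown.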
